A study of Sus scrofa with 4 samples.

Results

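Leydig cells are the androgen-producing cells that lie between the seminiferous tubules, and they were followed here in the testis of the pig (Sus scrofa) at 90 days of age. The members were chosen by the measured share of INSL3, CYP17A1 and CYP11A1, which together had to make up at least 0.5% of a cell barcode's unique molecular identifiers (UMIs, each a captured RNA molecule). Only barcodes with 1000 or more UMIs, 500 or more genes and no more than 15% of UMIs from the 13 mitochondrial genes were considered. The rule found 348 members among 12675 passing barcodes of the 90-day library, and the series held 55798 passing barcodes in all. The study asked how cells of the testicular niche develop, and profiled cell suspensions of testis at 7, 30, 60 and 90 days with 10x Chromium 3′ chemistry, in 1 library per age. The labels used here name no treatment or sort, and give neither breed nor the number of animals behind a library. Each age being a single library, ages and libraries cannot be told apart and nothing was tested; intervals are exact at 95% and hold the error of counting alone. Counts were summed over the barcodes of a group, and levels are given per 1000000 of those counts (CPM); "higher" and "lower" describe a ratio of 2 such levels, and a gene was counted as called when the ratio reached 2 in either direction.

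Leydig cells respond to luteinising hormone, which acts through its receptor LHCGR and cyclic AMP to bring cholesterol into mitochondria. There CYP11A1 cuts the cholesterol side chain to give pregnenolone, and CYP17A1 in the smooth endoplasmic reticulum turns C21 steroids into androgens. INSL3 is a peptide hormone of the same cells and serves as a reading of how many Leydig cells there are and how mature they are. The boar testis is known for its large output of oestrogens and of sulphated steroids beside testosterone.

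The rule itself set the members apart from the rest of the 90-day library by the share of its genes, so these shares describe the choice. Among the 12327 other passing barcodes the median share of the 3 genes was 0, the 95th percentile was 0.0646% and their pooled share was 0.00875%. Among the members the median share was 2.71%, with quartiles of 1.90 and 3.68% and a maximum of 8.40%. Few barcodes lay near the minimum: 6 were just inside it, between 0.51 and 0.57%, and 7 lay just outside, between 0.40 and 0.49%. The 7 outside still carried 122 counts of DHRS4 and 16 of RDH12, genes of the members, against 69 and 14 in the 6 inside. A further 9 barcodes met the share with fewer than 1000 UMIs, and 7 met it above the mitochondrial maximum. The histogram of the share at each age is sparser around the minimum at 90 days than at 60 days, when 22 barcodes were just inside and 24 just outside.

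**Figure D1:**
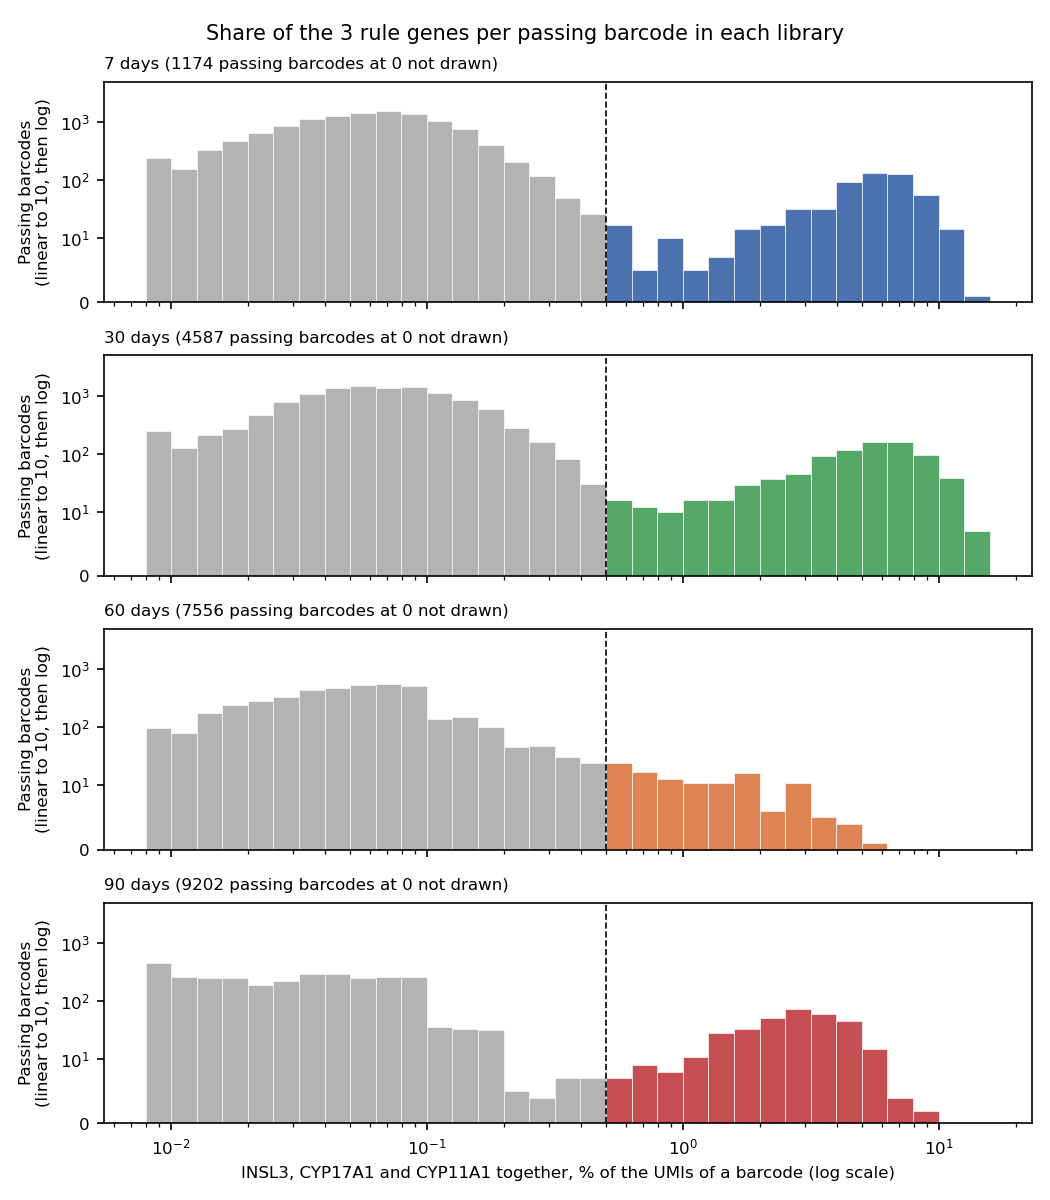
Share of INSL3, CYP17A1 and CYP11A1 among the UMIs of each passing barcode (log axis, %), as the number of barcodes per bin (linear to 10, then log), 1 panel per library; coloured bars are barcodes that met the rule and the dashed line is the minimum of 0.5%. At 90 days 348 members lie to the right of a sparse stretch, while at 60 days the 119 members run on from the rest.

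The label was checked against genes that the rule did not use. In members thinned to 1000 UMIs each, FMO1 was detected in 56.6%, RDH12 in 75.6%, STAR in 48.9% and LHCGR in 24.1%. In T or NK-like barcodes of the library, a class named by lymphocyte markers that should lack these genes, the same shares were 0.627, 0.501, 1.0 and 0.125%. That class was mixed, with 2840 CPM of interstitial stromal markers. Before thinning they were 89.4, 93.7, 81.0 and 65.8% of members, at a median depth of 3546 UMIs, and 1.0, 0.627, 1.38 and 0.125% of T or NK-like barcodes, at 1353 UMIs. Clustering of the 90-day library, which read the rule genes too, put 339 of the 348 members into 1 Leydig-like cluster of 349 barcodes. The 9 members outside it had a median share of 0.855% and a DHRS4 level of 1479 CPM, against 7251 CPM in the members inside. The 10 cluster barcodes that missed the rule had a median of 14338 UMIs, and CLU, a gene that Sertoli cells express strongly, stood at 11313 CPM in them. Since the clustering read the rule genes, this overlap does not bear on the label; the detection of FMO1, RDH12, STAR and LHCGR, which the rule did not read, did not go against it.

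Members were deeper than other barcodes and carried more mitochondrial RNA, at medians of 3546 against 2609 UMIs, 1763 against 1534 genes and 6.95 against 3.25% mitochondrial UMIs. The libraries held 45717373 to 96133720 counts over 15896 to 19373 barcodes, and the same rule found 558, 847 and 119 members at 7, 30 and 60 days. At 90 days members were 2.75% of passing barcodes (2.47 to 3.05%), against 4.03, 4.90 and 0.992% at 7, 30 and 60 days. Pairs of libraries shared 78 to 115 barcode sequences, and no member was shared. Scrublet marked 39 of the 348 members (11.2%) as doublets, against 6.53% of all passing barcodes of the library. Those 39 had a median of 6242 UMIs and 1.3% rule genes, and 1017 CPM of Sertoli markers, while the 309 unmarked had 3448 UMIs, 2.84% and 515 CPM.

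Against the other barcodes of the same library, 831 of 11027 measured features (7.54%) were at least 2 times higher in the members and 2208 (20.0%) were at least 2 times lower. The rule used this contrast, so these counts and the values that follow describe the members and test nothing. The median log2 ratio of all features was -0.35, and the 10 highest features held 11.0% of the members' counts against 7.23% in the other barcodes. TMM scaling, which sets most genes at no change, moved every ratio by 0.34 and gave 1312 higher and 1120 lower, so that 53.9% of called features were higher in place of 27.3%.

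LHCGR, the receptor through which luteinising hormone drives the cells, had the largest ratio of the named genes, with 282 CPM in members and 0.336 CPM in the others. Its log2 ratio of 9.71 (9.05 to 10.46) ranged from 7.25 to 12.37 over the alternative settings. The gene lies at chr3:91964415-92023821 of Sscrofa11.1 in the RefSeq annotation. INSL3 (chr2:59929591-59931220) stood at 17972 CPM in members and 62.9 CPM in the others, CYP17A1 (chr14:113805616-113820445) at 7372 and 19.6 CPM, and CYP11A1 (chr7:59172829-59188479) at 1676 and 4.91 CPM. These 3 are the rule genes, so their ratios only restate the rule. A small INSL3 signal was found outside the members: after thinning, 6.54% of other barcodes and 8.90% of T or NK-like barcodes carried an INSL3 UMI, against 99.7% of members.

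Genes of steroid synthesis that the rule did not use were high too. Of 17 measured genes of that list 13 were called higher and 2 lower, with a median log2 ratio of 3.87. The rule genes CYP17A1 and CYP11A1 are among the 13, so the count and the median restate the rule in part. Among all features 7.54% were higher and 20.0% lower. STAR, which carries cholesterol to the inner mitochondrial membrane, was at 801 CPM in members and 12.6 CPM in the others. CYB5A, the cytochrome that favours the androgen-forming step of CYP17A1, was at 7116 and 330 CPM. The electron carriers of mitochondrial P450 enzymes were high as well, with FDX1 at 784 against 53.6 CPM and FDXR at 468 against 19.5 CPM, and POR, the reductase of P450 enzymes in the endoplasmic reticulum, was at 302 against 71.1 CPM. CYP19A1, the aromatase that makes oestrogens, was at 167 against 1.96 CPM; the pig has several near-identical aromatase genes, so the split of reads among them is uncertain. The 2 exceptions were HSD17B3, which converts androstenedione to testosterone, and TSPO, a protein of the outer mitochondrial membrane. HSD17B3 was at 55.8 CPM in members and 156 CPM in the others, with its highest level of 472 CPM in Sertoli-like barcodes. TSPO was at 11.0 against 33.1 CPM, with 285 CPM in macrophage or monocyte-like barcodes.

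Members also carried enzymes that alter or export steroids. SULT2A1, the sulphotransferase of dehydroepiandrosterone, was at 681 CPM in members and 1.94 CPM in the others. PAPSS2, which makes the sulphate donor, had a log2 ratio of 3.06, and ABCC3, an exporter of conjugates, was at 90.9 against 0.778 CPM. SULT1C3, another sulphotransferase whose reads may be shared with close copies, was at 2055 against 20.2 CPM. HSD11B2, which inactivates cortisol, was at 311 against 2.32 CPM. CHST8, which sulphates the sugar chains of glycoproteins, was at 277 against 0.972 CPM. Of the 6 measured genes for conjugation and release, 3 were called higher and none lower, beside 7.54% higher and 20.0% lower among all features.

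**Figure D2:**
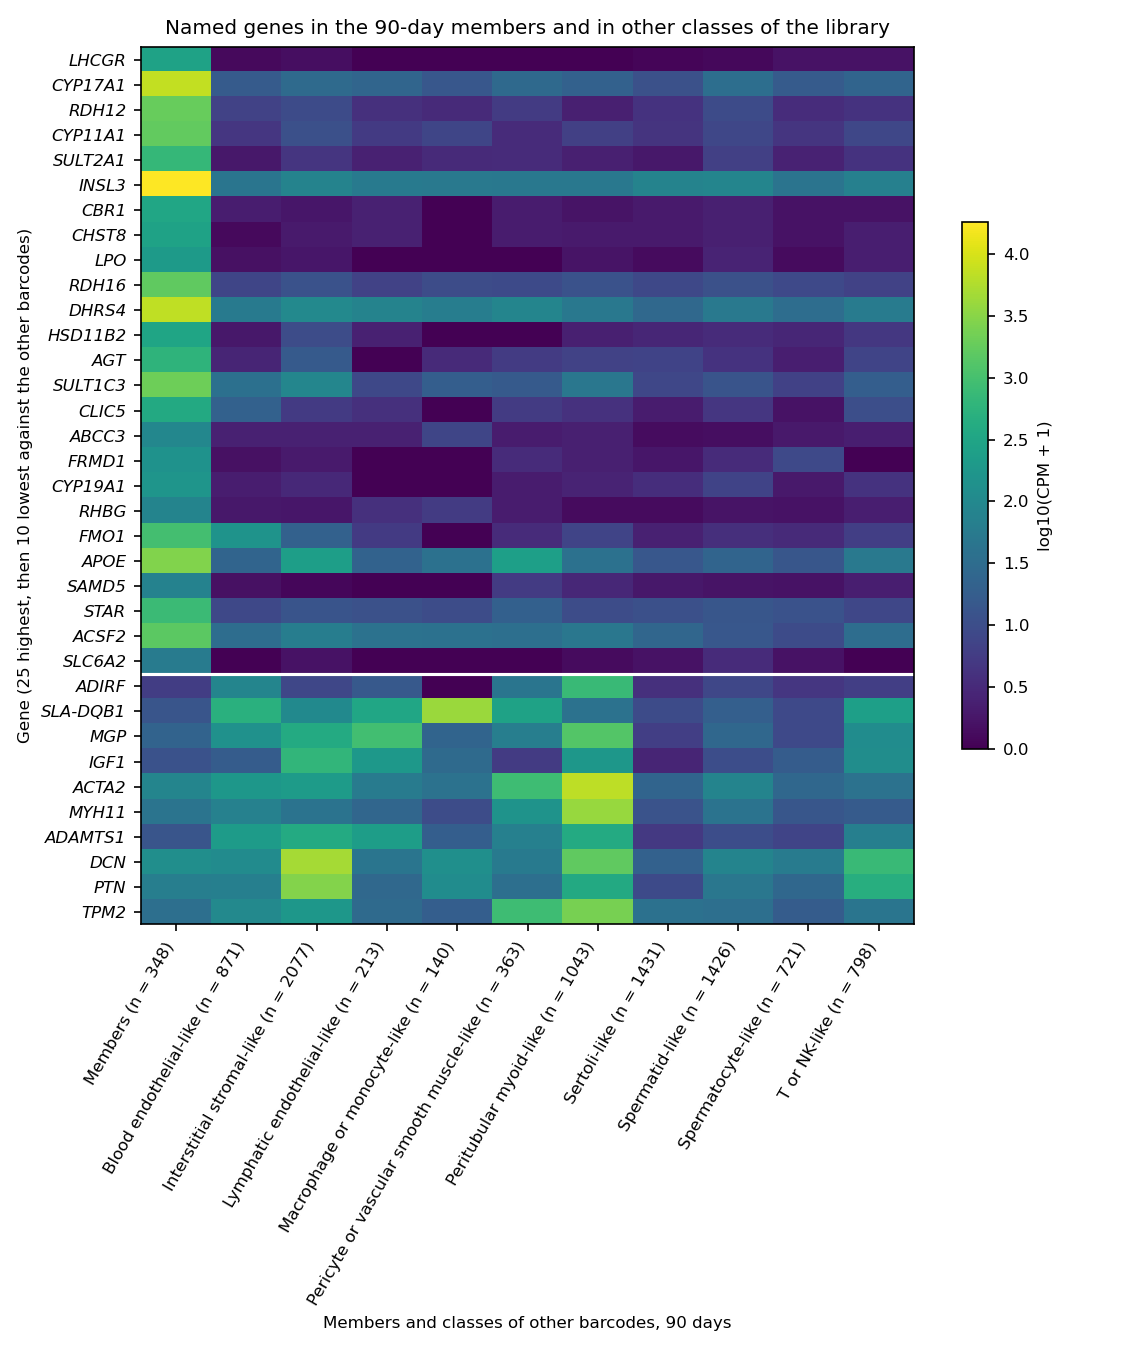
Level of the 25 named genes highest and the 10 lowest in the 90-day members (rows), as log10(CPM + 1), in the members and in 10 classes of other barcodes (columns, numbers of barcodes in the labels). LHCGR, at 282 CPM in members, was at most 0.644 CPM in any other class, while FMO1 also reached 154 CPM in blood endothelial-like barcodes and DCN lies highest in interstitial stromal-like ones.

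Supply of cholesterol was represented by both synthesis and uptake. Of 21 measured synthesis genes 11 were called higher and none lower, among them SC5D (log2 ratio 1.95), LSS (1.88) and HMGCS1 (1.80), which acts early in the pathway. Of 16 genes for uptake, storage and transport 8 were called higher and none lower. For both lists the shares over all features were 7.54% higher and 20.0% lower. APOE, the lipoprotein ligand, was at 2820 against 45.4 CPM, and LIPA, the lysosomal lipase that frees cholesterol from its esters, was at 255 against 12.8 CPM. SCARB1, the receptor for high-density lipoprotein, was at 203 against 38.6 CPM, and blood endothelial-like barcodes had as much of it, 219 CPM.

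Some retinoid enzymes and a carbonyl reductase were among the highest genes. RDH12 (chr7:91481238-91493838), which reduces retinal, was at 1872 CPM in members and 5.02 CPM in the others. RDH16 was at 1618 against 8.86 CPM, and DHRS4 (chr7:75242121-75255594), a carbonyl reductase, at 7122 against 55.2 CPM. RDH11 had a log2 ratio of 3.51, and DHRS3, which turns retinal back into retinol, one of 2.63. Among other genes of the list, RDH10, RDH13, RDH14 and DHRS7 were not called. ALDH1A1 and ALDH1A2, which make retinoic acid, had ratios of -1.15 and -2.02, and CYP26B1, which breaks it down, -1.81. Of 18 measured genes of the list 4 were called higher and 5 lower, which became 6 and 2 with TMM. Without TMM 7.54% of all features were higher and 20.0% lower.

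Enzymes that detoxify and that remove peroxides were frequent. Of 20 measured detoxifying genes 11 were called higher and 2 lower (none with TMM), and of 24 antioxidant genes 11 were called higher and none lower. FMO1 (chr9:63860957-63895086), a flavin monooxygenase that oxidises nitrogen and sulphur in small molecules, was at 975 against 13.7 CPM. CBR1, a carbonyl reductase with close copies in the genome, was at 327 against 0.972 CPM, and MGST1, a membrane glutathione transferase, at 1829 against 72.3 CPM. Among antioxidant genes GPX3 (log2 ratio 4.28), PRDX3 (2.87), the haem oxygenase HMOX1 (2.76) and catalase CAT (2.52) were highest. Nuclear genes of oxidative phosphorylation stood apart from these, with 2 of 24 called higher, near the 7.54% of all features, and a median of -0.09. The members' median share of mitochondrial UMIs was the higher one. Genes of protein folding in the endoplasmic reticulum had none of 19 called in either direction (3 higher with TMM).

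Among transcription factors and receptors 6 of 22 were called higher and 3 lower (10 and 2 with TMM), beside 7.54% higher and 20.0% lower among all features. NR5A1, the nuclear receptor that drives steroidogenic genes, was at 177 against 11.3 CPM. ESR1, the oestrogen receptor, and INSR, the insulin receptor, had log2 ratios of 2.80 and 2.65. KIT, the receptor of stem cell factor, was lower at -2.11. Of the other genes highest by the naming rule, LPO is a peroxidase (208 against 0.866 CPM), AGT the precursor of angiotensin (589 against 4.72 CPM) and ACSF2 an acyl-CoA synthetase (1499 against 25.3 CPM). CLIC5, RHBG, SLC6A2, FRMD1 and SAMD5 had log2 ratios of 6.73, 6.56, 6.23, 6.61 and 6.36. A feature with no symbol, ENSSSCG00000020706, was named after its values were seen: it was at 8341 CPM in members and 177 CPM in the others.

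The lowest named genes were those of neighbouring cells. ACTA2 and MYH11, contractile proteins of smooth muscle and peritubular myoid cells, were at 84.7 against 433 CPM and 42.7 against 230 CPM. DCN and MGP, matrix proteins of stroma, were at 124 against 580 CPM and 22 against 138 CPM. SLA-DQB1, a class II antigen-presenting chain with close copies, was at 12.4 against 98.0 CPM. IGF1, ADIRF, ADAMTS1, PTN and TPM2 had log2 ratios of -2.80, -3.38, -2.70, -2.29 and -2.40. Of 20 measured progenitor, fetal and stromal genes 11 were called lower and 4 higher, and VIM, an intermediate filament protein, was among the higher ones at 3091 against 690 CPM. Of 19 measured secreted factors only INSL3 was called higher, which restates the rule, and 10 were called lower (6 with TMM). For both lists the shares over all features were 7.54% higher and 20.0% lower.

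RNA of other cell types was present in the members at low levels. Spermatid markers summed to 1736 CPM, below the 3522 CPM in T or NK-like barcodes, with all 8 markers detected and a median of 6 UMIs per member. Sertoli markers summed to 622 CPM, near the 651 CPM of T or NK-like barcodes and far from the 3755 CPM of Sertoli-like ones, with 7 of 7 detected and a median of 1 UMI. Interstitial stromal markers summed to 825 CPM, below the 2840 CPM of T or NK-like barcodes and 4.48% of the level in stromal-like ones. Of these markers 7 of 8 were detected, with TCF21 at 0 and a median of 1 UMI per member. Macrophage markers summed to 6.20 CPM, with CSF1R, CD163 and C1QB at 0, and T or NK markers to 30.3 CPM, with IL7R at 0; the median member had none of either. How far such RNA entered other values was not tested.

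The 348 members were not alike in level. The share of INSL3 per barcode ran from 0.698% at the 10th percentile over a median of 1.69% to 3.27% at the 90th. After each member was thinned to 1000 UMIs, counts of INSL3 and CYP17A1 correlated with Pearson's r of 0.36 and Spearman's rho of 0.42 (n = 348). Both are rule genes, and the rule set a minimum on their sum with CYP11A1. Thinned counts of CYP17A1 and DHRS4 correlated with 0.37 and 0.40, and those of CYP17A1 and STAR with 0.19 and 0.23. These barcodes share 1 library, so the coefficients describe this library and carry no p. The rule share itself was weakly related to depth (rho 0.09) and to the mitochondrial share (rho 0.24).

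Split by that share, the members formed bands of 24 barcodes (0.5 to 1%), 72 (1 to 2%), 185 (2 to 4%) and 67 (4% or more). The bands come from a continuous score and are ranges, not cell types. STAR was at 194, 378, 946 and 1355 CPM from the lowest band to the highest, so it was higher in each successive band. RDH12 was at 456, 1005, 2083 and 3333 CPM, and the androgen-reducing enzyme SRD5A1 at 11.4, 48.0, 86.3 and 181 CPM, in the same order. CYP19A1 was at 17.1, 84.0, 140 and 436 CPM, on 3 counts in the lowest band, where SRD5A1 had fewer counts still. LHCGR was at 114, 249, 321 and 332 CPM, and the ratio of the top band to that of 1 to 2% was 0.42 on the log2 scale, with an interval from -0.03 to 0.86. NR5A1 was at 57.0, 192, 205 and 166 CPM, with no order above 1%. Some markers of other cells moved with the bands and others did not. Sertoli markers summed to 1425, 669, 516 and 306 CPM and spermatogonial ones to 684, 345, 182 and 155 CPM, lower in each successive band. Spermatid markers summed to 1180, 2037, 1780 and 1617 CPM and interstitial stromal ones to 279, 1380, 817 and 517 CPM, both lowest in the lowest band. Peritubular myoid markers, at 245, 717, 232 and 299 CPM, had no order. Of doublet calls, 13 of the 24 barcodes of the lowest band carried one, against 1 of 67 in the highest. Their part in the order of the genes was not tested.

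**Figure D3:**
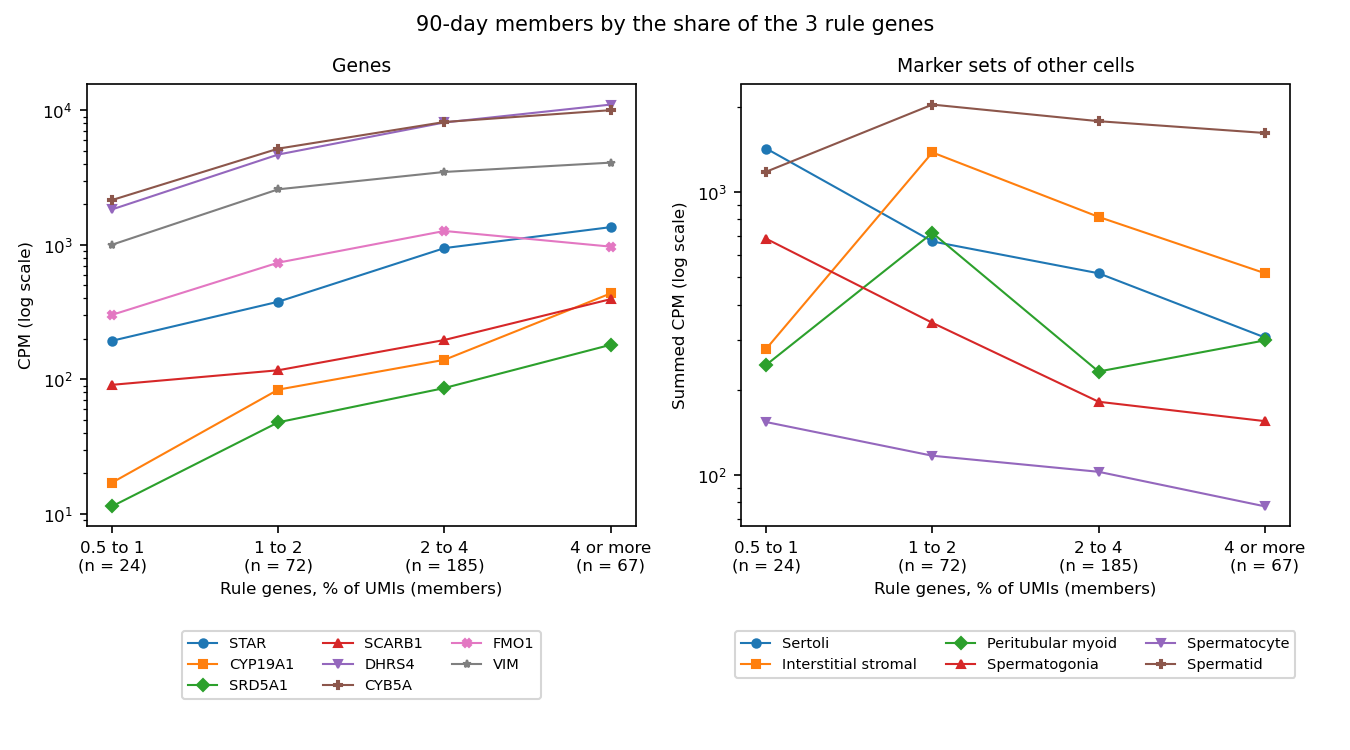
Level of 8 genes (left, CPM, log axis) and summed level of 6 marker sets of other cells (right, CPM, log axis) in the 90-day members, by band of the share of the 3 rule genes (numbers of barcodes in the axis labels); lines join the 4 pooled bands. STAR runs from 194 to 1355 CPM while Sertoli markers run from 1425 to 306 CPM.

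CBR1 was concentrated in few members. At 90 days CBR1 had no UMI in 274 of 348 members (78.7%), and the 35 highest members held 84.4% of its 475 counts. At 7, 30 and 60 days 24.4, 25.6 and 73.1% of members had none, at other depths. Median depths were 9547, 5572 and 2499 UMIs at those ages and 3546 UMIs at 90 days. After thinning to 1000 UMIs, CBR1 was detected in 55.9, 58.4, 16.8 and 14.4% of members at 7, 30, 60 and 90 days. CYP19A1 had none in 252 members (72.4%), and the 35 highest held 67.1% of its counts. LHCGR had none in 119 members (34.2%), and the 35 highest held 30.3% of its 409 counts. RDH12 had none in 6.32% of members, and the 35 highest held 27.7% of its 2718 counts. A lower level by itself leaves more barcodes at 0, and its part in these values was not tested.

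Few members carried RNA of dividing cells. Summed over 7 mitotic genes, the level was 304 CPM in the 90-day members and 718 CPM in the other barcodes, and in members of 7, 30 and 60 days it was 729, 498 and 42.5 CPM. At least 3 of the 7 genes were detected in 16 members (4.60%, 2.65 to 7.36%). Of those 16, 10 were called doublets, their median depth was 8671 UMIs, and spermatogonial markers summed to 574 CPM in them against 236 CPM in the other members. CCND3, a D-type cyclin that can be present without division, was the 1 gene of 18 in the cell cycle list that was called higher than in other barcodes, at 401 against 29.9 CPM, while 10 were called lower (5 with TMM). In that comparison 7.54% of all features were higher and 20.0% lower.

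The levels of the 90-day members were then set beside those of barcodes that met the same rule at 7, 30 and 60 days. All 3 comparisons use the 90-day library, so their results are given side by side and are not independent of each other. Against 7 days 2868 of 9856 measured features (29.1%) were at least 2 times higher at 90 days and 607 (6.16%) lower. Against 30 days 1980 of 9866 (20.1%) were higher and 408 (4.14%) lower, and against 60 days 1543 of 10628 (14.5%) higher and 1362 (12.8%) lower. The median log2 ratios were 0.49, 0.33 and 0.02. TMM scaling moved all ratios by -0.63, -0.41 and 0.10 and gave 1560 higher and 1569 lower against 7 days, 1263 and 935 against 30 days, and 1783 and 1172 against 60 days. The called features that were higher were thus 82.5, 82.9 and 53.1% with CPM and 49.9, 57.5 and 60.3% with TMM. Because of this shift, log2 ratios against 7 and 30 days are best read against those medians. The 60-day members were shallow and near the minimum, with a median of 2499 UMIs and 54 of 119 barcodes between 0.5 and 1%, and they held 376698 counts against 1451768 at 90 days.

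The 3 rule genes were lower at 90 than at 7 and 30 days and higher than at 60 days. INSL3 was at 41663, 38753, 11208 and 17972 CPM at 7, 30, 60 and 90 days, with a log2 ratio of 90 to 7 days of -1.21 (-1.23 to -1.19). CYP11A1 was at 2427, 2121, 1123 and 1676 CPM. The minimum of the rule bounds these values from below at every age. INSL3 counts per CYP17A1 count were 3.64, 3.12, 2.40 and 2.44, so the 60-day and 90-day values were close while both rule genes differed in level. LHCGR was at 375, 274, 547 and 282 CPM, highest at 60 days, and its ratio of 90 to 30 days was 0.04 (-0.12 to 0.20), which turned negative with TMM.

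**Figure D4:**
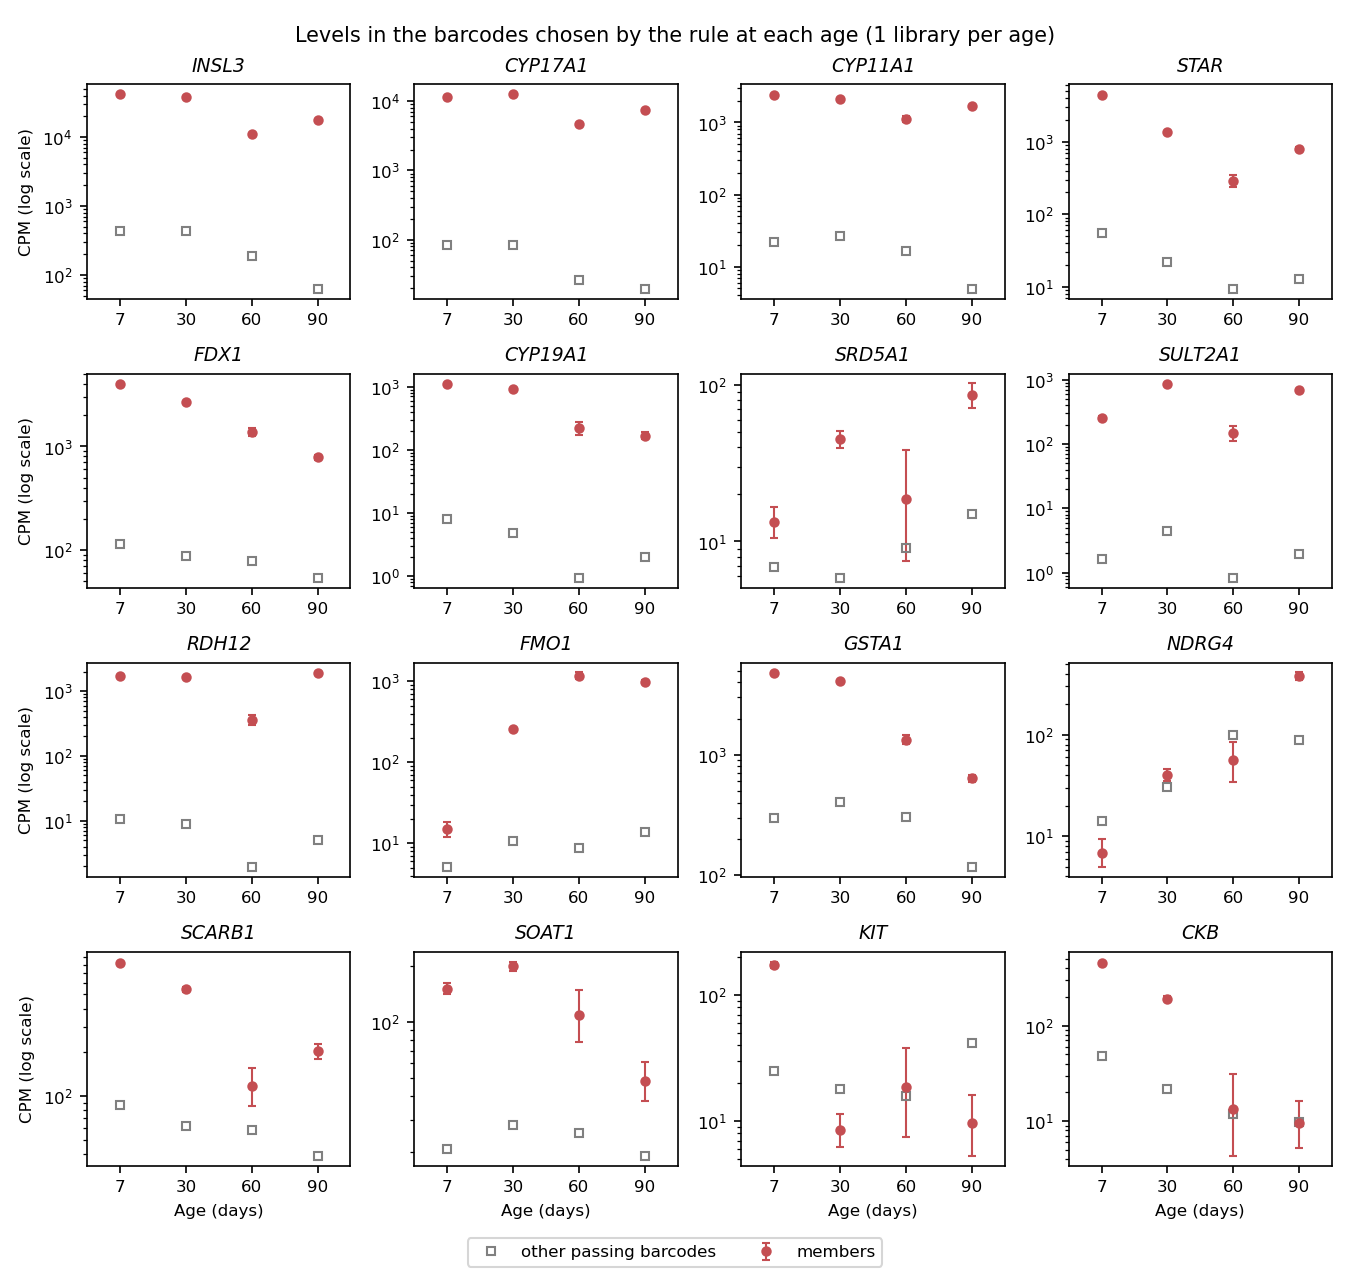
Level of 16 genes (CPM, log axis) at 7, 30, 60 and 90 days in the barcodes that met the rule (red circles, bars are exact 95% Poisson intervals) and in all other passing barcodes (grey squares), 1 library per age. FMO1 runs from 15.1 CPM at 7 days to 975 CPM at 90 days in members, and FDX1 runs from 4029 to 784 CPM.

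Steroid synthesis genes leaned lower against 7 days. Of 17 measured genes SRD5A1 alone was called higher and 3 were called lower, with a median log2 ratio of -0.44, against 0.49 for all features; with TMM 1 was higher and 10 were lower. FDX1 was at 4029, 2709, 1375 and 784 CPM from 7 to 90 days, a steady order. Other barcodes had less of it in the same order, from 114 to 53.6 CPM. STAR was at 4492, 1380, 289 and 801 CPM, lowest at 60 days. CYP19A1 was at 1102, 911, 218 and 167 CPM, and the ratio of 90 to 60 days, -0.38, was within counting error and turned positive under other settings. SRD5A1, which makes dihydrotestosterone, was at 13.3, 45.2, 18.6 and 86.1 CPM and thus highest at 90 days, with a ratio to 7 days of 2.70 (2.28 to 3.12). Against 30 days none of the list was called higher and FDX1 and CYP19A1 were called lower (none and 4 with TMM). Among all features 29.1% were higher and 6.16% lower against 7 days, and 20.1 and 4.14% against 30 days. Against 60 days SRD5A1, STAR and HSD11B2 were called higher and TSPO lower, beside 14.5% higher and 12.8% lower among all features.

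Sulphation genes differed among themselves across ages. SULT1C3 was at 2819, 2582, 1216 and 2055 CPM, highest at 7 days and lowest at 60 days. SULT2A1 was at 255, 851, 146 and 681 CPM, high at 30 and 90 days. ABCC3 was at 44.4, 80.4, 34.5 and 90.9 CPM, with the same pair of high ages. PAPSS2 was at 217, 481, 844 and 327 CPM and was highest at 60 days. Against 7 days 2 of 5 measured genes of conjugation and release were called higher and none lower, and with TMM none was higher and 1 lower. All features together had 29.1% higher and 6.16% lower without TMM.

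Cholesterol synthesis genes leaned lower against 7 and 30 days, with single genes the other way. EBP, an isomerase of late synthesis, was at 210, 266, 47.8 and 42.0 CPM, and IDI1, of early synthesis, at 632, 1058, 170 and 220 CPM, so both were low at 60 and 90 days. INSIG1, which holds back the sterol-sensing transcription factors, was at 24.6, 29.1, 31.9 and 110 CPM, highest at 90 days. Of 21 measured synthesis genes 2 were called higher and 5 lower against 7 days (1 and 11 with TMM), and 1 higher and 9 lower against 30 days (1 and 13 with TMM). The shares over all features were 29.1 and 6.16% against 7 days, and 20.1 and 4.14% against 30 days. SCARB1 was at 819, 542, 117 and 203 CPM, with a ratio of 90 to 7 days of -2.02 (-2.19 to -1.85). SOAT1, which stores cholesterol as esters, was at 150, 198, 109 and 48.2 CPM, lowest at 90 days.

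Among regulators NR5A1 was at 139, 95.7, 74.3 and 177 CPM, and NR0B1, a nuclear receptor that restrains NR5A1, at 3.77, 23.5, 37.2 and 32.4 CPM. KIT was at 174, 8.52, 18.6 and 9.64 CPM, high at 7 days and below the 41.6 CPM of other barcodes at 90 days. CREM, a factor of cyclic AMP signalling, was at 21.1, 27.6, 31.9 and 81.3 CPM, but other barcodes had 131 CPM of it at 90 days. NR2F1, a nuclear receptor of progenitor cells, was at 84.5, 81.3, 303 and 42.0 CPM, high at 60 days. Against 60 days 15 of 26 receptors and factors were called lower at 90 days and 2 higher, and against 7 days 4 of 22 in each direction (2 higher and 6 lower with TMM). All features had 12.8% lower and 14.5% higher against 60 days, and 6.16% lower and 29.1% higher against 7 days.

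Detoxifying enzymes differed in both directions. FMO1 was at 15.1, 255, 1171 and 975 CPM, lowest at 7 days and highest at 60 and 90 days, and the ratio of 90 to 7 days was 6.01 (5.71 to 6.34). FMO4, of the same family, was at 53.6, 104, 119 and 144 CPM. GSTA1, a glutathione transferase that also has isomerase activity on steroids, was at 4780, 4075, 1333 and 635 CPM, and CBR1 at 2338, 2087, 478 and 327 CPM. NQO1, a quinone reductase, was at 58.8, 497, 159 and 289 CPM. GSTM3 was at 11.8, 40.6, 26.6 and 332 CPM, but other barcodes stood at 71.2, 152, 56.8 and 761 CPM, so members were the lower group at every age. Of 20 measured genes 6 were called higher and 3 lower against 7 days (4 and 8 with TMM). The count of higher genes was near the share over all features, where 29.1% were higher and 6.16% lower.

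RDH12 was at 1724, 1630, 358 and 1872 CPM, low at 60 days, with a ratio of 90 to 60 days of 2.39. Its ratios of 0.12 and 0.20 to 7 and 30 days became negative with TMM. RDH16 was at 1234, 1280, 900 and 1618 CPM. DHRS3 was at 25.2, 59.1, 58.4 and 148 CPM, highest at 90 days. ALDH1A3, which makes retinoic acid, was at 290, 108, 74.3 and 53.0 CPM, lowest at 90 days. CRABP1 and ALDH1A1 were higher at 90 than at 7 days in members, with ratios of 7.57 and 4.83, but their levels in the other barcodes of the 90-day library, 592 and 280 CPM, exceeded the 280 and 126 CPM in members. Of 17 measured genes of the list 5 were called higher and 3 lower against 7 days (4 and 4 with TMM). Among all features 29.1% were higher, near the share in this list, and 6.16% lower.

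Antioxidant and respiratory genes leaned lower against 7 days. Of 24 antioxidant genes 2 were called higher and 8 lower (1 and 14 with TMM), among them CAT at 649, 437, 303 and 266 CPM and GPX1 at 280, 139, 45.1 and 77.1 CPM. Of 24 nuclear genes of oxidative phosphorylation none was called higher and 3 lower (18 with TMM), with a median of -0.54. ATP5MC3, a subunit of the rotor of ATP synthase, was at 864, 462, 212 and 119 CPM. Mitochondrial genes made up 8.55, 8.18, 5.51 and 6.87% of the members' counts at 7, 30, 60 and 90 days. Folding genes of the endoplasmic reticulum had 3 of 19 called higher and none lower (none and 1 with TMM). Both were below the shares over all features, 29.1% higher and 6.16% lower.

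**Figure D5:**
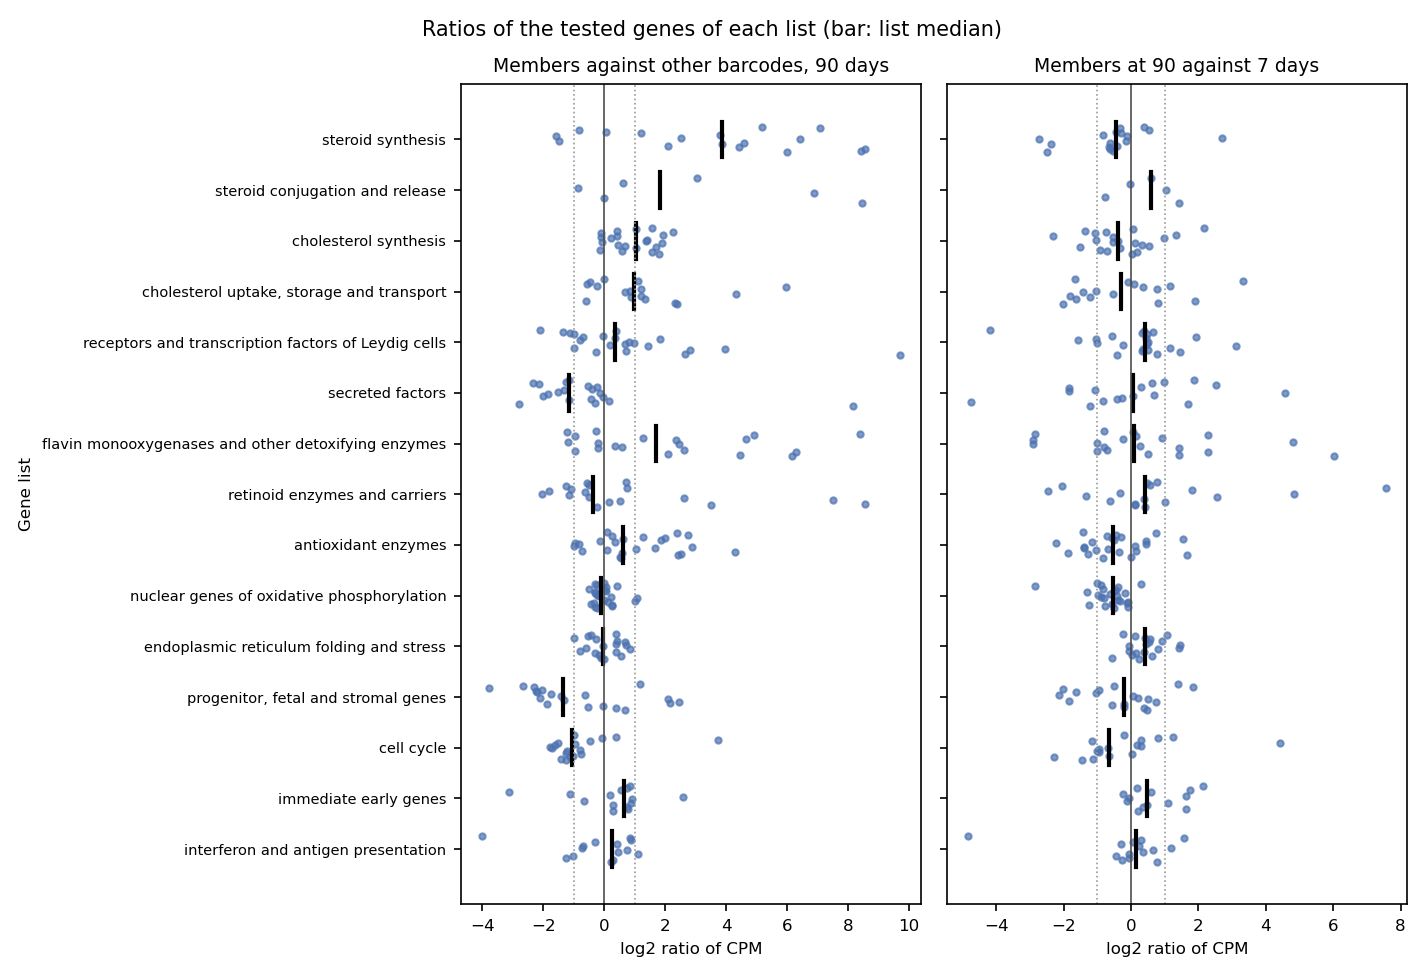
Log2 ratio of CPM of each measured gene (points) of 15 gene lists, for members against other barcodes at 90 days (left) and for members at 90 against 7 days (right); black bars are list medians and dotted lines mark a ratio of 2 either way. The median of steroid synthesis, with 2 rule genes in the list, was 3.87 on the left. It was -0.44 on the right, where the median of all features was 0.49.

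Beyond the lists, the largest differences from 7 days were in genes of mixed function. NDRG4 was at 6.88, 40.2, 55.7 and 378 CPM, and the other barcodes had 14.2, 30.6, 99.7 and 88.7 CPM, so members exceeded them by more than the call ratio only at 90 days. SAMD5 was at 2.95, 11.7, 2.65 and 77.1 CPM, with 1 count in the 60-day members. RNASE4, a secreted ribonuclease, was at 31.3, 208, 425 and 566 CPM, and AEBP1, a collagen-binding protein, at 55.2, 160, 220 and 602 CPM. AHNAK, TM4SF1, C12orf75, SERPINB6, ZNF503, C1QTNF1 and DIPK2A were the other genes named as higher, with log2 ratios between 3.40 for DIPK2A and 5.94 for AHNAK.

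In the other direction, IGFBP2, a binding protein of insulin-like growth factors, was at 257, 65.9, 234 and 9.64 CPM, lowest at 90 days. CKB, a creatine kinase, was at 453, 192, 13.3 and 9.64 CPM, with the other barcodes at 9.86 CPM at 90 days. C3, a complement protein, was at 587, 185, 268 and 43.4 CPM, and COX4I2, an isoform of a respiratory subunit, at 153, 41.7, 23.9 and 7.58 CPM. FBP2, an enzyme of gluconeogenesis, was at 467, 207, 29.2 and 47.5 CPM. NRK, HIST1H2BD and GSTO1 had log2 ratios of -3.94, -3.86 and -2.89. INHA, a subunit of inhibin, was at 670, 462, 470 and 187 CPM in members, and in the other barcodes it was at 2517 CPM at 7 days and 206 CPM at 90 days. PENK, the precursor of enkephalins, was at 3.44, 43.5, 162 and 81.3 CPM in members, but the other barcodes had more at every age. Of 17 measured secreted factors 4 were called higher and 5 lower against 7 days, beside 29.1% higher and 6.16% lower among all features.

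Against 30 days the genes named as higher beside NDRG4 and SAMD5 were ZNF503, CPEB2, FITM2 and AK4, with log2 ratios of 2.77, 2.56, 2.38 and 2.29. FITM2 acts in the budding of lipid droplets and was at 47.8, 20.6, 13.3 and 107 CPM. Those named as lower were KLK1, PERP, CKB, HPD, CSRNP3 and GUSB. PERP, a membrane protein of desmosomes, was at 15.4, 328, 79.6 and 10.3 CPM, highest at 30 days. HPD, an enzyme of tyrosine breakdown, was at 137, 317, 50.4 and 32.4 CPM. KLK1, a kallikrein, had 2 counts at 90 days and a ratio of -6.29 (-9.34 to -4.43).

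Against 60 days ALAS1, the first enzyme of haem synthesis, was higher, at 1574, 240, 53.1 and 371 CPM over the 4 ages, as was SLC16A10, a transporter of aromatic amino acids, at 200, 183, 55.7 and 333 CPM. Immediate early genes were lower than at 60 days, with 11 of 17 called lower and none higher: FOS was at 1324, 1500, 4869 and 1519 CPM and EGR1 at 420, 437, 3024 and 908 CPM. Other barcodes had FOS at 6125 CPM at 60 days and 1245 CPM at 90 days, so the difference was not limited to members. Of 19 progenitor, fetal and stromal genes 11 were lower and none higher than at 60 days, and DCN was at 241, 275, 573 and 124 CPM; summed stromal markers in members were 2185 CPM at 60 and 825 CPM at 90 days. The part of that RNA in these ratios was not tested. Of 16 interferon and antigen presentation genes 7 were lower and none higher, and CXCL10, a chemokine named as lower, had 1 count at 90 days and a ratio of -7.56 (-12.89 to -5.02), with 102 and 11.08 CPM in the other barcodes at 60 and 90 days. ABI3BP, on 2 counts at 90 days, FHL3, NRK and IGFBP2 were also named as lower, with log2 ratios between -6.16 for ABI3BP and -4.21 for NRK. Cell cycle genes were higher than at 60 days in 8 of 17 cases and lower in 1, with the doublet calls and depth given above for the 90-day members that carried mitotic genes. For these list counts, 14.5% of all features were higher and 12.8% lower than at 60 days.

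Of the 25 genes named as highest against the other barcodes of the 90-day library, 8 had their highest level over the 4 ages at 90 days. Those were FRMD1, SAMD5, CHST8, APOE, RDH12, RDH16, ABCC3 and LPO. This order is by CPM and depends on the scaling. The TMM shifts were -0.63 against 7 days and -0.41 against 30 days. With them RDH12, RDH16, APOE and ABCC3 were no longer highest at 90 days. Their log2 ratios by CPM were 0.12, 0.39 and 0.36 against 7 days for the first 3, and 0.18 against 30 days for ABCC3. A further 9 were highest at 7 days, among them INSL3, STAR, CYP11A1, CYP19A1 and HSD11B2, and 6 at 30 days, among them CYP17A1, DHRS4 and SULT2A1. FMO1 and LHCGR were highest at 60 days, and for FMO1 the order of 60 and 90 days turned under other settings. For LPO the order of 60 and 90 days, at 199 and 208 CPM, was within counting error.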

How the data were processed

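The authors deposited raw UMI counts per gene and barcode for 4 libraries, not normalized. The submitters' processing notes name Scanpy 1.7.1, bcl2fastq, Cell Ranger and the build Sscrofa11.1, and the Cell Ranger version was 5.0.1 per the file headers. The labels name 86453 captured cells, and 69602 barcodes were used here as the start. Of 31908 features, 16508 carry a symbol in the files and 815 took one from a reference table. The members, lists, naming rule and alternatives were chosen with earlier results of these data known.

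Counts were summed per library and group and scaled to CPM, with exact Poisson, conditional binomial (ratios) and Clopper-Pearson (shares) intervals at 95%. Measured features had at least 10 CPM in 1 of the 2 groups; a group with no counts was set to a floor of 3. Named genes were the 25 highest and 10 lowest against the other barcodes, and the 12 largest differences in each direction against 7 days and 6 against 30 and 60 days. Ranking was by whichever end of the interval lay closer to a ratio of 1. Each needed a symbol and a level of 50 CPM or more in its higher group, without mitochondrial, ribosomal protein and haemoglobin genes. For differences between ages the gene also had to be at least as high there as in the other barcodes of that library. Beside them stand members of 15 lists (31 of 419 list genes, HSD3B1 among them, had no feature of that symbol) and the markers. Reads shared by near-identical copies cannot be told apart here. The 3′ counts do not scale with transcript length.

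Each library was clustered alone with Scanpy 1.11.5 (2000 variable genes, 30 components, 15 neighbours, Leiden at resolution 1), and clusters were named from marker sets with at least 3 detected markers. Scrublet ran per library with members kept; at 60 days it made 1 call and was not used. Intervals were tested on simulated Poisson counts only, the model they assume. That test could not show how they hold under spread beyond counting error. TMM factors came from edgeR 4.0.16 in R 4.3.3. Python 3.11.15, NumPy 2.4.6, SciPy 1.17.1, pandas 2.3.3, scikit-learn 1.9.0, leidenalg 0.10.2, igraph 0.11.9 and matplotlib 3.10.9 were used. Alternatives were a rule minimum of 0.25, 1 or 2%, at least 2000 UMIs, at most 10% mitochondrial UMIs, no doublet calls, cluster members only, TMM, means over barcodes, thinning to 1000 UMIs, subtraction of 10% free RNA, and filters at 50 CPM or none. Promoter and other sequences were not used here. Some genes of the lists are not reported by name here.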

Additional observations from a re-analysis of the deposited data

How the results depend on the processing

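The number of 90-day members was 252 to 366 over the alternative rules. With TMM the features at least 2 times higher and lower numbered 1312 and 1120 against the other barcodes, 1560 and 1569 against 7 days, and 1263 and 935 against 30 days. Thinning to 1000 UMIs gave 936 lower against 7 days and 718 against 30 days. Testing only features with at least 50 CPM, which leaves fewer, gave 422 higher and 647 lower against the other barcodes, 715 and 307 against 7 days, 430 and 161 against 30 days, and 411 and 347 against 60 days. With no such filter the counts were 1790 and 4426, 5246 and 1047, and 3824 and 1000 for the first 3 comparisons. Beyond the construction of each setting, the cause was not tested. The other 87 counts stayed within 1.5 times. No gene named by rank reversed in the comparison that named it. Among all 1235 gene and comparison pairs followed, 12 called ratios turned sign under some setting, among them CYP26B1 (1.82 to -0.32), MFAP4 (1.84 to -0.06) and SLA-DQB1 (-1.78 to 0.03) against 7 days, MYH11 (1.25 to -0.13) against 30 days, and CCND2 (-1.45 to 0.16), COL1A2 (-1.12 to 0.20), COX4I2 (-1.66 to 0.04), IGFBP5 (-1.06 to 2.60), INHA (-1.33 to 0.32), PSMB9 (-2.04 to 0.04) and PTN (-1.33 to 0.44) against 60 days. No value could be had at 60 days without doublet calls, since Scrublet made 1 call there. No paired analysis was possible because each age is 1 library, and no replicate could be left out. The 119 members at 60 days hold 376698 counts, which limits the precision of that comparison.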
